A study of Mus musculus with 5 samples.

Results

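The genes described here were the AP-1 and EGR immediate early factors of lung fibroblasts, taken by gene symbol from the count table. The 10 members were Fos, Fosb, Fosl2, Jun, Junb, Jund, Egr1, Egr2, Egr3 and Atf3, out of 23478 genes in the table, and all 10 passed the filter on low counts that left 15298 genes for testing. AP-1 is a dimeric transcription factor built from a FOS protein and a JUN protein, or from JUN proteins alone, through their leucine zippers. EGR proteins are zinc finger factors that bind GC-rich sites. Both groups of genes are switched on within minutes of a growth factor, stretch or stress signal, without new protein synthesis, chiefly through SRF with its ternary complex partners and through CREB family factors downstream of MAP kinases. Their transcripts are short-lived, and tissue dissociation is a well-known inducer of them.

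The libraries were made from GFP-sorted cells of the mouse lung at postnatal day 6, during alveologenesis, the stage when septa subdivide the airspaces. Control mice (2 libraries) carried Rosa-EGFP, 1 floxed and 1 wild-type Igf1r allele (Igf1r Flox/Wildtype) and Gli1creER, and the Igf1r-deleted mice (3 libraries) carried Rosa-EGFP, 2 floxed Igf1r alleles and the same Gli1creER. Igf1r encodes the receptor for IGF1, a tyrosine kinase upstream of the MAP kinase and PI3 kinase pathways. Both groups received 100 µg tamoxifen per pup at days 0 and 1, so the Cre was active in both, and the controls were heterozygous for the deletion instead of wild type. Gli1creER labels and recombines only cells that express Gli1 at the time of tamoxifen, the mice were of a mixed background and of both sexes, and the lungs were digested with enzymes at body temperature before sorting. The labels do not say how many pups went into a library, so p-values measure only the spread between these 5 libraries.

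To show the DNA that precedes these genes, the 250 bases upstream of the RefSeq start (GRCm38.p6) are printed for Fos, Junb and Egr2, the FOS, JUN and EGR members with the smallest unadjusted p-value of their family. Positions are counted backwards from the start, and no printed base lies in an annotated exon. Capitals mark the CREB core site TGACG on either strand, the SRF-binding CArG box and the TATA element TATAAA. The Fos sequence is chr12:85473640-85473889 on the plus strand, the Junb sequence is chr8:84978749-84978998 on the minus strand, and the Egr2 sequence is chr10:67537619-67537868 on the plus strand. RefSeq lists 5 starts for Egr2, and the one used is the start of the first-numbered GENCODE transcript. Longer Egr2 transcripts begin further upstream, so this stretch lies inside the annotated gene, between exons.
Fos: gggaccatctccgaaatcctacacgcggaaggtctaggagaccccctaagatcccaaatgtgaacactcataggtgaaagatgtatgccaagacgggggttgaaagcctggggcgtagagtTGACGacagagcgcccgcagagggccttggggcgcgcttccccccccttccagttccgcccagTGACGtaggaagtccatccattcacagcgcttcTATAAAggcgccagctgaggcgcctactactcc
Junb: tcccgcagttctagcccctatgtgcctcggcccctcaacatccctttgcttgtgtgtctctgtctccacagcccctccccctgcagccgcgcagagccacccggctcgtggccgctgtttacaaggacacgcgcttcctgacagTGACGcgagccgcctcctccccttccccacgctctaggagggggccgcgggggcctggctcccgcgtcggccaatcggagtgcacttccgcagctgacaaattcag
Egr2: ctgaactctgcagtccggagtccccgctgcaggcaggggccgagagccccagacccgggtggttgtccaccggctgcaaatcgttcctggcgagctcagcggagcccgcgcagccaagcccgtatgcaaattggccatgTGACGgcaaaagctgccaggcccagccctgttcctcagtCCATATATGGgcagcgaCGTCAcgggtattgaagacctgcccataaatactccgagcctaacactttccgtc

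Fos carried TGACG at -129 to -125 and at -66 to -62, and TATAAA at -33 to -28. The Junb sequence held 1 core site, at -106 to -102. Junb also had TATAAA at 0 to 5, where 0 is the RefSeq start, so it lies just past the printed stretch. That start lies 30 bases from the GENCODE start. Egr2 held 2, at -111 to -107 and, on the other strand, at -55 to -51. Egr2 alone of the members with a RefSeq entry had a CArG box in the window searched, at -72 to -63. Sites further from the start were not searched, so a gene without a site here may have one elsewhere. Over the window of 250 bases before to 50 after the start, RefSeq entries were matched for 8 of the 10 members, those of Egr1 and Egr3 being the exceptions. The core site was present in 5 of these 8 (Fos, Fosb, Junb, Egr2 and Atf3) and in 20.8% of 32851 promoters, and a CArG box was present in 1.63% of promoters. The EGR site, searched as GCGGGGGCG or GCGTGGGCG on both strands, was found in Fosb and Fosl2 and in 3.47% of promoters, and in both genes it overlapped a GC box, GGGCGG. Neither the full CRE (TGACGTCA, which contains the core site) nor the AP-1 site (TGACTCA or TGAGTCA) was found in these 8 windows. They occurred in 1.79% and 5.2% of promoters. The RefSeq start used lies 671 bases from the GENCODE start for Fosl2 and 1210 bases from it for Jund. The windows of Fosl2 and Jund therefore do not adjoin the GENCODE start.

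The libraries held 35116766 to 37597857 counts and 17099 to 17239 genes with a count, so depth was near equal. Igf1r, the deleted gene, stood at 324 and 324 CPM (counts scaled to the library's size with TMM factors) in the controls and at 140, 177 and 194 CPM in the Igf1r-deleted libraries, which matched the labels (log2 fold change -0.93, SE 0.14). The fibroblast label was matched by Col1a1 at 5212 to 7114 CPM, Col1a2 at 5528 to 7371 CPM and Pdgfra at 480 to 684 CPM, against 1.92 to 5.10 CPM for the epithelial marker Epcam, 40.2 to 120 CPM for the endothelial marker Pecam1 and 12.2 to 31.1 CPM for the leukocyte marker Ptprc. Alveolar type 2 cell RNA was measurable, with Sftpc at 233 to 552 CPM. Summed over 12 epithelial markers, the libraries stood at 1140 and 1058 CPM in control libraries, against 759, 1133 and 512 CPM after deletion. The 12 hematopoietic markers, of which Hbb-bs was at 0 throughout, summed to 645 and 378 CPM against 492, 325 and 203 CPM. Both sums overlapped between the genotypes, although 11 of 12 epithelial markers and all 10 hematopoietic markers tested had a lower fitted level after deletion. In 4 epithelial and 2 hematopoietic markers, all deleted libraries lay below both controls. Of these, Sftpa1 (log2 fold change -0.79), Sftpd (-0.77) and Cd68 (-0.82) met the criterion used below. The part of these markers' cells in the results was not tested. The endothelial (290 to 812 CPM), mesothelial (326 to 441 CPM) and pericyte (282 to 349 CPM) sums overlapped too. Of the first 3 markers of those 5 lists, which also include Cdh1, Nkx2-1, Cdh5, Kdr, Csf1r, Msln, Wt1, Cspg4 and Notch3, only Cd68 (10.8 and 8.49 CPM against 6.72, 4.45 and 5.18 CPM), Upk3b (102 and 113 CPM against 90.4, 73.4 and 99.4 CPM) and Rgs5 (21.6 and 19.6 CPM against 16.0, 16.3 and 15.4 CPM) did not overlap between the genotypes.

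The summed fibroblast markers (21482 to 27329 CPM) overlapped, but that sum is mostly collagen RNA, and 3 of the 11 markers separated by genotype and met the criterion used below. The smooth muscle actin gene Acta2 was at 407 and 655 CPM in the controls against 764, 1067 and 907 CPM after deletion (log2 fold change 0.78, SE 0.23), and Tagln, the gene for transgelin, was higher as well (0.59). Tcf21, a transcription factor of lung lipofibroblasts, was at 1662 and 1168 CPM against 1003, 902 and 963 CPM (-0.57, SE 0.16). The part of this shift among fibroblast markers in the members' levels was not tested.

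Sex was uneven between the groups. The Y-linked Ddx3y stood at 114 and 108 CPM in control libraries, and at 85.6 CPM in Igf1r-deleted library 2, and at 0.227 and 0.0557 CPM in Igf1r-deleted libraries 1 and 3. Xist, the RNA of the inactive X chromosome, was at 170 and 435 CPM in those last libraries and at 4.09 CPM or less in the other 3. Both controls and Igf1r-deleted library 2 were therefore read as male, and no female control was present.

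Every member had a lower fitted level in the Igf1r-deleted fibroblasts. The 10 log2 fold changes ran from -0.87 for Egr3 to -0.19 for Fosb, with a median of -0.40, against a median of 0.01 over all genes tested, of which 47.7% were lower. None of the 10 passed an adjusted p of 0.05 in edgeR's quasi-likelihood F test (Benjamini-Hochberg), and neither did any of the 15298 genes (0%). At an unadjusted p under 0.05, 6 members were lower and none higher, where 12.4% of all genes were past that threshold and 6.75% were past it and lower. With DESeq2's Wald test, 3 members (Egr2, Junb and Egr3) and 200 genes in all passed an adjusted p of 0.05.

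By the study's own kind of criterion, a log2 fold change of at least 0.5 in size with an unadjusted p under 0.05 and an expressed gene (here CPM over 1 in at least 50% of a genotype's libraries, in place of FPKM), 4 members qualified, all lower: Fosl2, Junb, Egr2 and Egr3. Of all genes, 5.83% qualified and 3.67% qualified as lower. Without control 1, or with library totals in place of TMM factors, only Egr2 and Egr3 of the members qualified. In Fos, Fosl2, Junb, Jund, Egr2 and Egr3, all 3 Igf1r-deleted libraries lay below both controls, while for the other 4 members the genotypes overlapped. Such full separation with the deleted libraries lower was seen in 14.9% of genes, and in either direction in 31%. With 2 libraries against 3, an exact permutation test of a single gene cannot go below p = 0.1. In bulk RNA, fewer cells expressing a gene and less RNA per cell cannot be told apart.

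**Figure D1:**
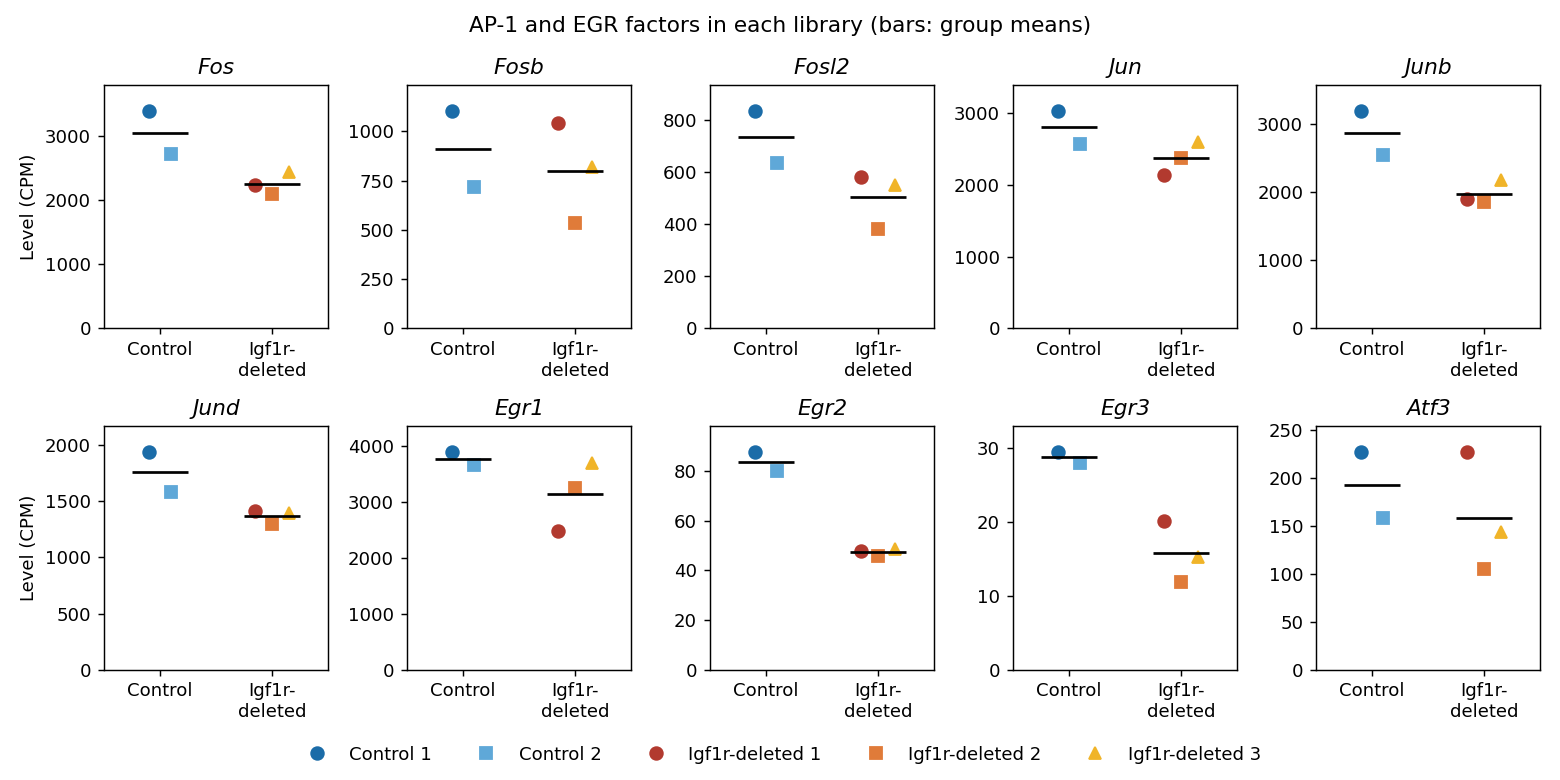
CPM (linear axis from 0) of the 10 members in each of the 5 libraries, with 1 panel per gene, points for libraries and bars for the mean of 2 control and 3 Igf1r-deleted libraries. In the Egr2 panel the deleted libraries sit at 45.6 to 48.6 CPM under controls of 79.9 and 87.5 CPM, while in the Fosb and Atf3 panels the genotypes overlap.

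Among the FOS genes, Fos encodes the prototype FOS partner of the AP-1 dimer and lies on chromosome 12 (85473890 to 85477273, plus strand, GRCm38). Control 1 gave 3391 CPM and control 2 gave 2718 CPM, and the Igf1r-deleted libraries gave 2244, 2091 and 2433 CPM. All 3 deleted libraries were under the lower control. Means of 3055 ± 476 CPM (SD, n = 2) and 2256 ± 171 CPM (SD, n = 3) corresponded to a log2 fold change of -0.44 (SE 0.15, 95% interval -0.79 to -0.09, unadjusted p = 0.0215). It did not pass with edgeR's quasi-likelihood F test (Benjamini-Hochberg) (adjusted p = 0.357) or with DESeq2 (adjusted p = 0.0720).

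Fosl2 encodes FRA2, a FOS protein without the strong activation domain of FOS itself. The gene is on chromosome 5 (32135801 to 32157842, plus strand). Its levels were 835 and 637 CPM in control libraries, against 583, 380 and 551 CPM after deletion, again with no overlap, and Igf1r-deleted library 2 was the lowest. The log2 fold change was -0.54 (SE 0.21, 95% interval -1.03 to -0.06). Its adjusted p was 0.376 with edgeR's quasi-likelihood F test (Benjamini-Hochberg) and 0.160 with DESeq2, and neither passed.

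Fosb, whose long product activates and whose truncated splice form lacks the activation domain, is on chromosome 7 (19302696 to 19310051, minus strand). It read 1104 and 715 CPM in control libraries, against 1041, 535 and 817 CPM in the deleted libraries. Control 1 and Igf1r-deleted library 1 were the high libraries and control 2 lay between Igf1r-deleted libraries 2 and 3, so the order of the libraries did not follow genotype. The spread within each genotype (275 CPM SD for the controls, 254 CPM SD for the deleted) exceeded the difference of the means (910 against 798 CPM), with a log2 fold change of -0.19 (SE 0.29, 95% interval -0.87 to 0.49, unadjusted p = 0.535). Without control 1 the fold change changed sign, to 0.15.

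Of the JUN genes, Junb separated most clearly. Junb encodes a JUN protein that dimerizes with FOS proteins, binds AP-1 sites and is a weaker activator than JUN, and the gene is on chromosome 8 (84974484 to 84978718, minus strand). The controls were at 3187 and 2548 CPM and the deleted libraries at 1891, 1860 and 2178 CPM, so every deleted library was below both controls. The means were 2867 ± 452 CPM (SD, n = 2) and 1976 ± 175 CPM (SD, n = 3), with a log2 fold change of -0.54 (SE 0.15, 95% interval -0.89 to -0.18, unadjusted p = 0.00889). The adjusted p was 0.354 with edgeR's quasi-likelihood F test (Benjamini-Hochberg) and 0.0227 with DESeq2, so the call depended on the tool.

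Jund, the JUN gene usually transcribed at a steady rate in unstimulated cells, lies on chromosome 8 as well (70698949 to 70700616, plus strand, a single exon). Its levels were 1938 and 1584 CPM in control libraries, against 1412, 1302 and 1396 CPM after deletion. The deleted libraries lay close together, within a factor of 1.08, and below both controls, with a log2 fold change of -0.36 (SE 0.13, 95% interval -0.68 to -0.05, unadjusted p = 0.0288). The gene Gm11175 on the opposite strand covers 52.6% of the Jund exon, and since the sources used here do not say whether strand was used in counting, reads of the pair cannot be told apart. For Jun the share covered by Junos was 7.28% and for Junb the share covered by Prdx2 was 7.52%.

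Jun itself, the partner of FOS in the classical AP-1 dimer and the substrate of JNK, is a single-exon gene on chromosome 4 (95049034 to 95052222, minus strand). It was at 3026 and 2572 CPM in control libraries, and at 2133, 2371 and 2597 CPM in the deleted libraries. Igf1r-deleted library 3 was level with control 2, and the genotypes overlapped (log2 fold change -0.24, SE 0.15, 95% interval -0.59 to 0.10, unadjusted p = 0.143). Relative to Jun, Junb was lower in each deleted library: there were 105 and 99.0 Junb CPM for every 100 Jun CPM in the controls, against 88.7, 78.5 and 83.9. That ratio was computed after the levels were seen and was not tested.

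**Figure D2:**
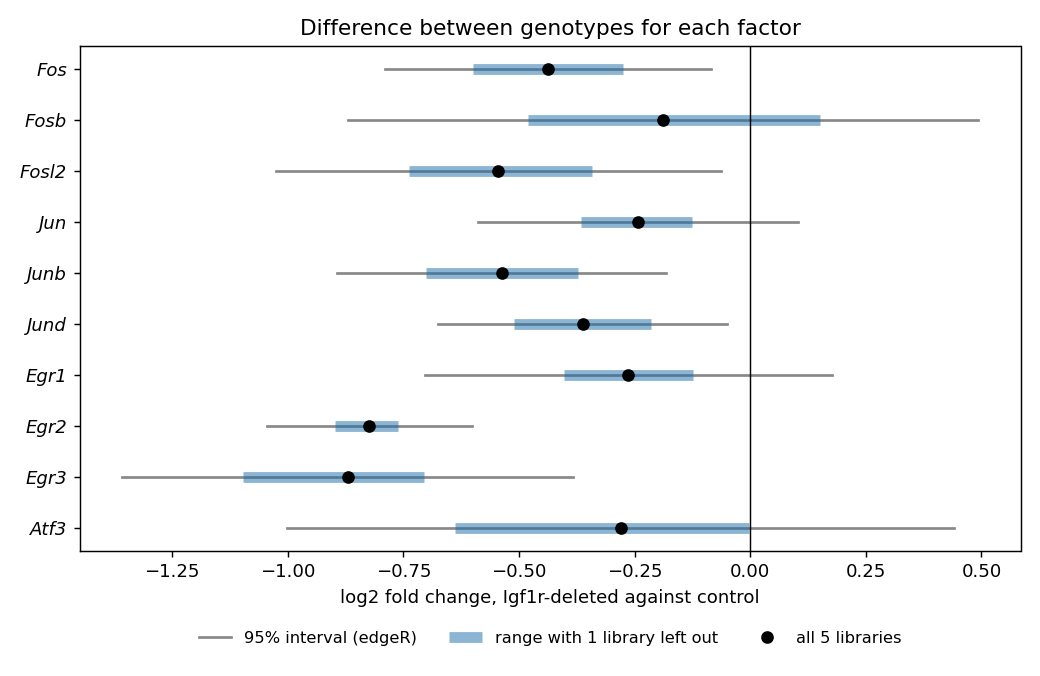
Log2 fold change of each member, Igf1r-deleted minus control, from edgeR (points) with 95% intervals (bars) and the range obtained when each of the 5 libraries was left out in turn. All 10 points are below 0. The Egr2 interval, -1.05 to -0.60, is the narrowest, and the leave-one-out range crosses 0 for Fosb alone.

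The EGR genes divided by level. Egr1, the most abundant of them and the main EGR product of serum-stimulated fibroblasts, lies on chromosome 18. It was at 3891 and 3659 CPM in control libraries, and at 2476, 3250 and 3706 CPM in the deleted libraries. Igf1r-deleted library 3 was above control 2, library 1 stood well below the rest, and the log2 fold change was -0.26 (SE 0.19, 95% interval -0.70 to 0.18, unadjusted p = 0.201). By mean CPM, without regard to gene length, Egr1 ranked 13 of 15298 genes.

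Egr2 (Krox20), a zinc finger factor known for hindbrain patterning and myelination and induced in fibroblasts by growth factors, is on chromosome 10 (67535475 to 67542188, plus strand). Its deleted libraries were the closest together of any member's. The controls read 87.5 and 79.9 CPM and the deleted libraries 47.5, 45.6 and 48.6 CPM, so that the deleted libraries stayed within a factor of 1.07 of each other and well below both controls. The means were 83.7 ± 5.4 CPM (SD, n = 2) and 47.3 ± 1.5 CPM (SD, n = 3), 0.565 of the control mean, with a log2 fold change of -0.82 (SE 0.09, 95% interval -1.05 to -0.60). Its unadjusted p of 4.21e-05 was the smallest, rank 1, of the 15298 genes. The adjusted p was 0.306 with edgeR's quasi-likelihood F test (Benjamini-Hochberg) and 9.16e-10 with DESeq2. The fold change stayed between -0.90 and -0.76 whichever library was left out.

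Egr3, a close relative of Egr2 with the same class of DNA-binding domain, is on chromosome 14 (70077203 to 70082614, plus strand) and was the least abundant member. It stood at 29.4 and 28.0 CPM in control libraries, and at 20.1, 11.8 and 15.2 CPM after deletion. No deleted library reached the control level, though these 3 differed among themselves by a factor of 1.71. The log2 fold change was -0.87 (SE 0.21, 95% interval -1.36 to -0.38, unadjusted p = 0.00375), with an adjusted p of 0.354 in edgeR's quasi-likelihood F test (Benjamini-Hochberg) and 0.0269 in DESeq2. For every 100 Egr1 CPM there were 2.25 and 2.18 Egr2 CPM in control libraries, against 1.92, 1.40 and 1.31 in the deleted libraries. Like the Junb ratio, this one was lower in all 3 deleted libraries, was chosen after the levels were seen and was not tested.

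Atf3, a stress-induced leucine zipper factor of the ATF/CREB family that pairs with JUN proteins, is on chromosome 1 (191170296 to 191218039, minus strand). Its levels were 227 and 158 CPM in control libraries, against 227, 105 and 143 CPM after deletion. Igf1r-deleted library 1 was level with control 1, and the spread among the deleted libraries was a factor of 2.16, the widest of the members. The log2 fold change of -0.28 (SE 0.31, 95% interval -1.0 to 0.44, unadjusted p = 0.391) was smaller than its error. Its size turned on single libraries, from -0.0032 without control 1 to -0.64 without Igf1r-deleted library 1 (unadjusted p = 0.0233). With the sex of the library as a term it was -0.87, and Fosb was at -0.77. No control was female, so the genotype difference in that fit rests on Igf1r-deleted library 2 alone. None of these fits gave Atf3 an adjusted p under 0.05.

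**Figure D3:**
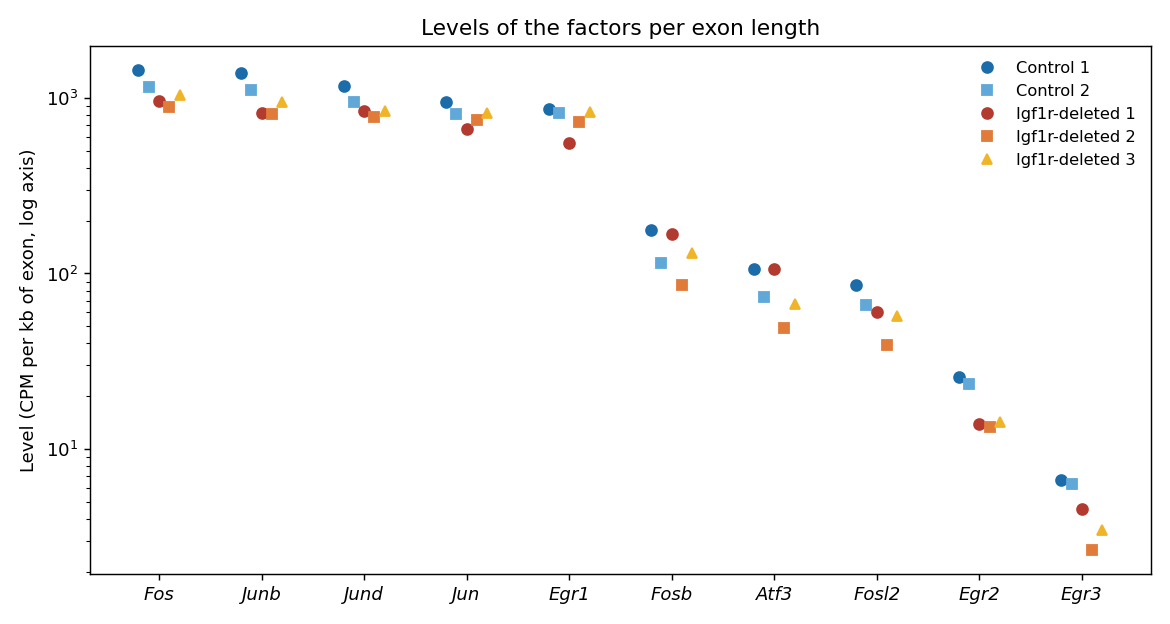
Level of each member per kilobase of annotated exon (CPM per kb, log axis) in each of the 5 libraries, members ordered by their mean. Fos, Junb, Jund, Jun and Egr1 form a group at 757 to 1095 CPM per kb, and Egr3 is last at 4.74 CPM per kb.

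Levels between genes were compared per kilobase of exon in the GENCODE annotation. The mean level over the 5 libraries was 1095 CPM per kb for Fos, 1014 for Junb, 915 for Jund, 796 for Jun and 757 for Egr1, and the libraries of neighbours in this order overlapped. Fosb came next at 135 CPM per kb, followed by Atf3 at 80.0, Fosl2 at 61.7, Egr2 at 18.2 and Egr3 at 4.74 CPM per kb. Every library was higher for Egr1 than for Fosb, for Fosl2 than for Egr2 and for Egr2 than for Egr3. Fosb, Atf3 and Fosl2 overlapped as neighbours across libraries, but within each library Fosb was above Atf3 and Atf3 above Fosl2. Fos was also above Junb, and Jund above Jun, within each library. The position of Jund is uncertain, because its RefSeq start lies 1210 bases from the GENCODE start and its exon length per model therefore differs. Within the families, Fos made up 80.8% to 87.7% of the FOS sum per kb and Egr1 96.3% to 97.9% of the EGR sum in every library. Junb made up 39.6% and 38.7% of the JUN sum in the controls and 35.2%, 34.7% and 36.4% in the deleted libraries, so its share was lower in all 3. The ratio of the FOS sum to the JUN sum was 0.488 and 0.467 in the controls and 0.506, 0.435 and 0.471 after deletion, with full overlap.

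The members did not vary in one common way across libraries. Each gene's log2 CPM was centred on its own mean over the 5 libraries, and pairs of members were compared by the root mean square (RMS) difference of these profiles, as a description over 5 libraries that share depth and handling. The profile of Fos was nearest to those of Junb and Jund, with RMS differences of 0.058 and 0.060, and Junb and Jund differed by 0.111. Fosb and Atf3 were likewise near each other, at 0.120, both high in control 1 and Igf1r-deleted library 1. For every 100 Fosb CPM there were 20.6 and 22.1 Atf3 CPM in control libraries, against 21.8, 19.7 and 17.6 after deletion. Jun and Egr1 made another near pair, at 0.112, both lowest in Igf1r-deleted library 1. Egr1 and Atf3 were the farthest apart, at 0.526.

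**Figure D4:**
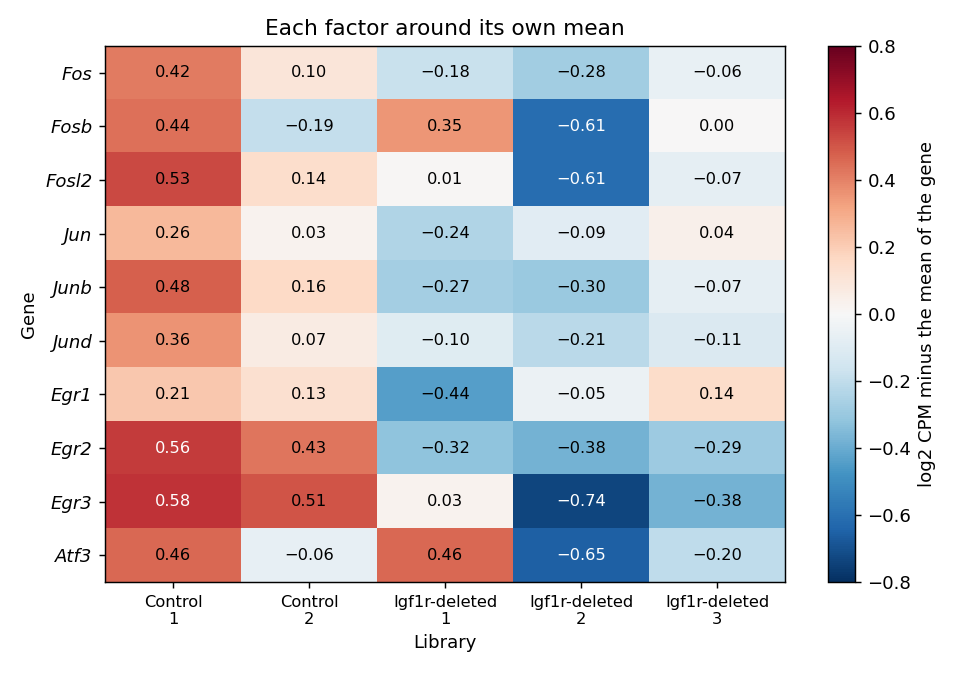
Centred log2 CPM (log2 units, printed in each cell) of the 10 members in the 5 libraries. Control 1 is the highest library for 9 members and Igf1r-deleted library 2 is the lowest for 8. Fosb and Atf3 are high in control 1 and in Igf1r-deleted library 1.

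Control 1 exceeded control 2 in all 10 members, by factors of 1.05 for Egr3 to 1.54 for Fosb. The share of all genes that were higher in control 1 was not computed. The RMS difference in log2 CPM between the controls was 0.345 over the members and 0.501 over all genes tested. The RMS difference has no sign, so it cannot show whether the common shift between the controls was particular to these genes. That was not tested. The mean centred level of the members was 0.43 and 0.13 in the controls and -0.07, -0.39 and -0.10 in the deleted libraries on the log2 scale. Without control 1, the median log2 fold change of the members was -0.25, and without control 2 it was -0.56. With the 3 male libraries alone, all 10 members were lower in Igf1r-deleted library 2 than in both controls and the median was -0.70. The share of all genes lower in that library than in both controls was not computed, so the count is not read as particular to the members. The comparison of male libraries was chosen after the libraries' sex was seen. It rests on a single deleted library that was the lowest of all 5 for 8 members. Sex and genotype cannot be told apart for the other 2 deleted libraries, since no control was female.

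The 5 genes outside the members whose profile lay nearest to the mean member profile, of 15288 genes searched, were Mafk, Rps27a, Capg, Ppm1k and 4931440P22Rik, with RMS differences of 0.029 to 0.040. Mafk, a small MAF protein that forms leucine zipper dimers, was at 149 and 118 CPM in control libraries, against 101, 83.2 and 97.8 CPM after deletion.

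Of the 13 related leucine zipper and EGR genes outside the members, 10 were lower and 3 higher, with a median log2 fold change of -0.45. At an unadjusted p under 0.05, 3 were lower and none higher, namely Egr4, Mafk and Jdp2. Egr4, the remaining EGR family gene, was near the limit of what was counted, at 2.91 and 2.59 CPM in control libraries, against 1.30, 0.604 and 0.501 CPM after deletion, with all 3 deleted libraries below both controls (log2 fold change -1.78, SE 0.45). Mafk (-0.50) and Jdp2, a repressor that pairs with JUN proteins (-0.62), completed the set. The FOS family gene Fosl1 was barely detected, at 0.101 to 1.41 CPM. The EGR corepressors Nab2 (-0.23) and Nab1 (-0.08), themselves induced by EGR factors, did not pass an unadjusted p of 0.05.

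The transcripts of the pathway upstream were mixed in direction. Of 24 genes for SRF, its partners, CREB factors and MAP kinases, 10 were lower and 14 higher, with a median of 0.06. Crem, which encodes cAMP-responsive activators and the inducible repressor ICER, was the lower one at an unadjusted p under 0.05, at 77.1 and 63.2 CPM in control libraries, against 56.9, 18.2 and 25.7 CPM after deletion (log2 fold change -1.06, SE 0.42). Mkl1, the SRF coactivator now named Mrtfa (0.26), and the kinase Map3k1 (0.51) were the 2 that were higher at that threshold. These are RNA levels and do not report kinase activity.

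Of 33 other immediate early genes, 30 were lower and 3 higher in the deleted libraries, with a median of -0.40, the same as that of the members to this precision. At an unadjusted p under 0.05, 19 were lower and none higher, and 21 separated fully. None passed the adjusted threshold with edgeR's quasi-likelihood F test (Benjamini-Hochberg). The study's kind of criterion was met by 10, including Cebpd, an acute-phase C/EBP factor, at 1881 and 1012 CPM against 675, 398 and 461 CPM, with a log2 fold change of -1.50 (SE 0.30). Socs3, the feedback inhibitor of JAK-STAT signalling, was at 1647 and 1194 CPM against 882, 802 and 836 CPM (-0.76, SE 0.15). Dusp1, a MAP kinase phosphatase, was at 1111 and 944 CPM against 744, 659 and 758 CPM (-0.51, SE 0.13). The others were Arc, Ier5, Gadd45g, Zfp36, Myc, Trib1 and Nr4a3. Nr4a1, in contrast, was at 1660 and 1496 CPM against 1222, 1472 and 1813 CPM, with overlap.

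Heat shock genes, a stress response with its own factor HSF1, were lower as well, in 8 of 8, of which 5 were at an unadjusted p under 0.05. Hspa1a, an inducible HSP70, was at 985 and 1122 CPM in control libraries, against 521, 119 and 114 CPM after deletion (log2 fold change -2.07, SE 0.63). Dnajb1, its HSP40 cochaperone, was at 285 and 291 CPM against 171, 129 and 132 CPM (-1.0, SE 0.14), and Hspa1b (-1.98) and Hspb1 (-0.40) were lower too. Hspa1a and Hspa1b are near-identical copies, so the split of reads between them is uncertain. The sum of the 8 genes was 2726 and 3379 CPM in control libraries, against 1923, 896 and 947 CPM in the deleted libraries. Like the members' sum, it was below both controls in every deleted library and lowest in Igf1r-deleted library 2. The order of the controls differed, since the members were higher in control 1 than in control 2. The part of cell handling in the members' levels was not tested.

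**Figure D5:**
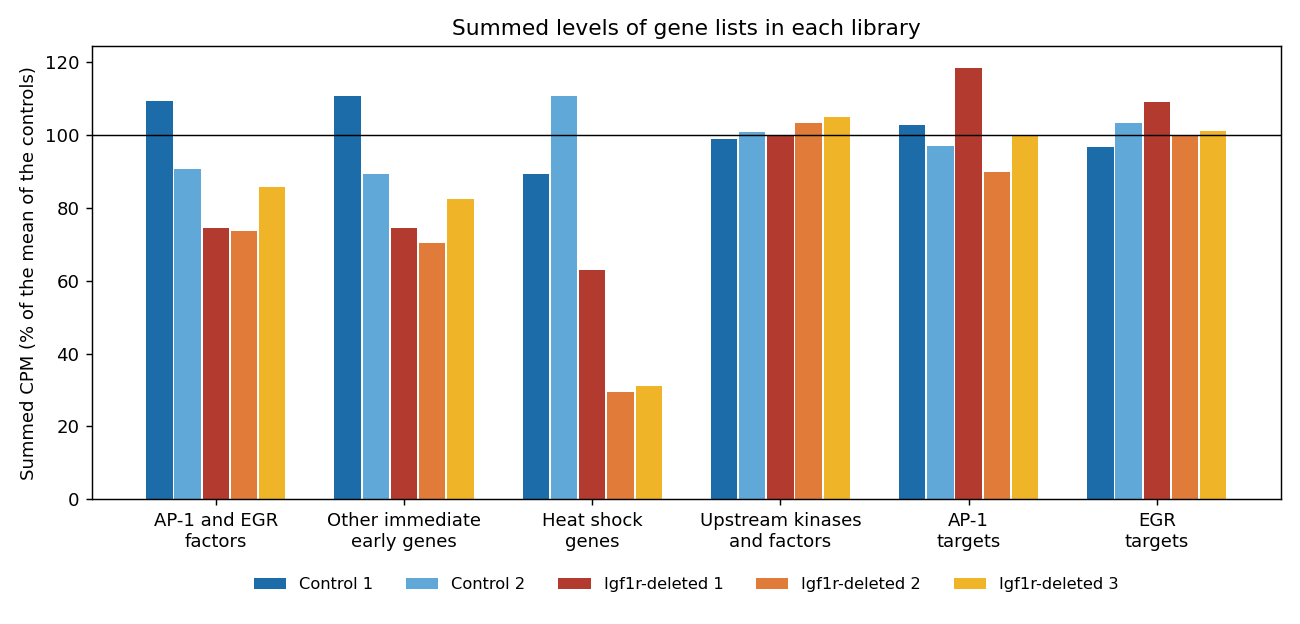
Summed CPM of 6 gene lists in each library as a percentage of the mean of the 2 controls. The members stand at 74.5%, 73.7% and 85.7% in the Igf1r-deleted libraries and the other immediate early genes at 74.6%, 70.3% and 82.5%, while the AP-1 and EGR target lists overlap between genotypes.

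Genes known as AP-1 targets were mixed in direction. Of 18 tested of 19 listed, 11 were lower and 7 higher, with a median of -0.23, and those past an unadjusted p of 0.05 were 2 higher and none lower. Lif, a cytokine of the IL-6 family, was at 7.72 and 9.44 CPM in control libraries, against 16.8, 10.8 and 14.5 CPM after deletion (log2 fold change 0.71, SE 0.22), and Gja1, the gap junction gene connexin 43, had a fold change of 0.26. Plaur, the urokinase receptor, was at -0.59 and missed that threshold. The EGR target list was evenly divided, with 6 lower and 6 higher of 12 and a median of -0.04. Cd44, the hyaluronan receptor, was at 248 and 382 CPM against 466, 441 and 439 CPM (0.51, SE 0.18), and the hyaluronan synthase Has2 was at 85.3 and 26.9 CPM against 36.2, 7.75 and 7.07 CPM, with overlap.

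Proteins that bind AU-rich elements speed or slow the decay of immediate early transcripts, and their genes were mixed: 3 were lower and 5 higher of 8, with a median of 0.14, and at an unadjusted p under 0.05 there were 2 in each direction. The decay factors Zfp36, at 3596 and 2688 CPM against 2148, 1939 and 2213 CPM, with a log2 fold change of -0.58 (SE 0.16), and Zfp36l2 (-0.38) were lower, and Hnrnpd (0.43) was higher. Zfp36 is itself an immediate early gene and is counted in both lists.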

How the data were processed

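Raw counts per gene were read from the deposited table, in which the authors had counted paired-end reads over genes with no normalization after trimming, alignment to mm10 and counting in R. The submitters' processing notes name Trim Galore, Bowtie2, Cufflinks and DESeq without versions. The annotation used for counting and the strand setting are not given in the sources used here. No column of the table was left out. Counts were tested with edgeR 4.0.16 in R 4.3.3 (TMM factors, low-count filter by group, quasi-likelihood F test, two-sided, genotype as the only term, Benjamini-Hochberg adjustment over all 15298 genes tested, all 5 libraries). DESeq2 1.42.0 and limma 3.58.1 were alternatives. CPM used TMM-scaled library sizes. Total counts were 35116766 to 37597857 per library. Replicates of a genotype differed by more than sampling noise. The scripts were tested on simulated data. Exon lengths and positions came from GENCODE M21 on GRCm38, and upstream sequences from RefSeq on GRCm38.p6.

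The members and gene lists were chosen with earlier results of these data known. Named genes were the 10 members, Igf1r, the 3 genes of smallest p in each other list plus any past the adjusted threshold or the study's criterion, the first 3 markers of each cell type, and the 5 genes nearest to the mean member profile. Fosl1, Nr4a1, Acta2, Tagln, Tcf21, Hbb-bs, Sftpc, Sftpa1, Sftpd and the sex-linked genes, named beyond this rule, were chosen after their values were seen.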

Additional observations from a re-analysis of the deposited data

How the results depend on the processing

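All 10 members stayed lower under every normalization, filter and test tried, and the exceptions came with libraries left out: Fosb ranged from -0.48 (without control 2) to 0.15 (without control 1), and was at 0.026 without Igf1r-deleted library 2. No gene passed an adjusted p of 0.05 in the edgeR fit (1897 at an unadjusted p under 0.05), against 200 with DESeq2 (3563 genes had no adjusted p), 136 with the replicate block, 10 with the male libraries alone and 0 to 45 when 1 library was left out. The members called were 3 with DESeq2 (Egr2, Egr3 and Junb) and 1 with the replicate block (Egr2). The replicate numbers were not shown to pair the libraries: there are only 2 shared numbers, and same-numbered libraries correlated at 0.208 and 0.121 across genes. Control 2 and the differently numbered Igf1r-deleted library 3 correlated at 0.119, and the remaining pairs were negative. Levels were centred on each genotype's mean for these correlations. With only 2 controls, the correlations of a deleted library with them are then equal and opposite by construction. With library totals in place of TMM, 2 members passed the study's kind of criterion (Egr2 and Egr3), and 35.6% instead of 54.4% of genes at an unadjusted p under 0.05 were lower (45.2% instead of 63.0% of those past the criterion). Left-out libraries gave 2 (without control 1) to 6 members past the criterion, and 227 (without control 1) to 1717 genes past it against 892. With 1 Igf1r-deleted library left out, 6 to 8 members had the remaining deleted libraries below both controls. For this count and the separation counts that follow, the share of all genes under the same setting was not computed. The 14.9% given above holds for all 5 libraries, and separation comes more easily with fewer libraries. These counts are therefore not read as particular to the members. Leaving out a control left only 1 control to compare with. All deleted libraries were below it for 6 members without control 1 and for 10 without control 2. The male libraries alone gave 1551 genes past the criterion and 10 members below both controls. The median of the members was -0.69 with sex as a term and -0.70 in males alone. These are not separate checks, since both rest on Igf1r-deleted library 2 for the genotype difference. The median was -0.56 to -0.25 with 1 library left out, and -0.35 with the trend in GC content and length removed. The sex, GC and separation alternatives were chosen after seeing the data. The cause of the differences was not tested. At under 3 CPM in every library, Egr4 and Fosl1 rest on few counts.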
